A study of Mus musculus with 25 samples.

Results

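The endothelial genes described here are 10 genes used as markers of the cells that line blood vessels: Cdh5, Pecam1, Esam, Cldn5, Flt1, Kdr, Tek, Tie1, Emcn and Sox17. They were chosen by name, each through the brightest transcript cluster (the probe set that measures a gene on this array) carrying its symbol alone. Each of the 10 had 1 such cluster, and together they are 10 of the 18820 genes the array names. Their levels were compared between the mamillary neuroepithelium of Lhx5 mutant embryos, labelled KO, and of wild-type embryos, labelled WT. All embryos were of the C57BL/6 strain and were collected at E10.5. The study describes the mutant as Lhx5 fl/fl, a hypomorph that carries floxed but not recombined Lhx5 on both chromosomes, with no Cre allele. In all 13 KO and 12 WT samples, labelled as biological replicates, were each hybridised to 1 array. The values are log2 RMA values (robust multiarray averaging, a background-corrected and quantile-normalized probe summary), so that a difference of 1 is a change of 2-fold.

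A brain region at this stage contains more than neuroepithelium. Vessels grow into the neural tube from a plexus that surrounds it, led by tip cells that respond to Vegfa made by the neural tissue. Endothelial cells are held together by Cdh5, Pecam1, Esam and Cldn5 at their junctions, receive Vegf signals through Flt1 and Kdr and angiopoietin signals through Tek and Tie1, and are joined by pericytes. Most of their marker genes are little used by neural progenitors. In a dissected piece of tissue a lower level of them can come from fewer endothelial cells or from less RNA per cell, which cannot be told apart in bulk RNA. All 10 genes were measured on every array. Cdh5 and Emcn had the highest group means, 8.73 and 8.61 in WT, and Sox17 the lowest at 4.72, close to the array medians of 4.64 to 4.76, but levels of different probe sets are not comparable on this scale.

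The KO arrays fall into replicates 1 to 10 and replicates 11 to 13. The means of these sets are equal on nearly every probe set, with a median absolute difference of 1.33e-06. The mean of replicates 1 to 10 thus adds nothing to that of replicates 11 to 13. A term for KO replicates 1 to 10 was therefore fitted beside genotype. Each difference below is that of the 3 KO arrays 11 to 13 from the 12 WT arrays. How the means became equal is not known, so KO replicates 11 to 13 cannot be taken as unadjusted. Lhx5 itself stood at 7.97 ± 0.22 (SD, n = 12) in WT and at 7.92 ± 0.16 (SD, n = 3) in KO replicates 11 to 13, a difference of -0.04 ± 0.17 (SE, limma adjusted p = 0.960). Since the floxed allele retains its exons, this does not check the labels.

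WT replicate 11 stood apart from the other WT arrays in the endothelial genes. It was the lowest of the 12 WT arrays for 10 of the 10 genes, where the same held for 15.4% of all clusters. It was the highest for 0 of the 10 genes, beside 15.5% of all clusters. Both shares of all clusters were the largest of any WT array, so that it was extreme in both directions beyond these genes. Its distance from the mean of the other 11 WT arrays ran from -0.59 for Sox17 to -0.98 for Cldn5, or 0.662-fold to 0.507-fold. For each gene it was also lower than the next lowest WT array, by 0.36 (Kdr) to 0.85 (Cldn5). The mean of the 10 genes was 6.46 in WT replicate 11 and 7.10 to 7.31 in the other WT arrays. In 10 of the 10 genes KO replicate 11 was the highest of KO replicates 11 to 13, though in Flt1 by less than 0.01. The share of all clusters for this count was not computed. KO replicate 11 lay above the mean of the other WT arrays by 0.20 (Emcn) to 0.42 (Cdh5). It did not stand apart among all KO arrays, as the mean of the 10 genes was 7.50 in both KO replicates 10 and 11. WT replicate 11 and KO replicate 11 were picked out after their values were seen. Many, but not all, of the differences between KO and WT are given with and without them. 

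**Figure D1:**
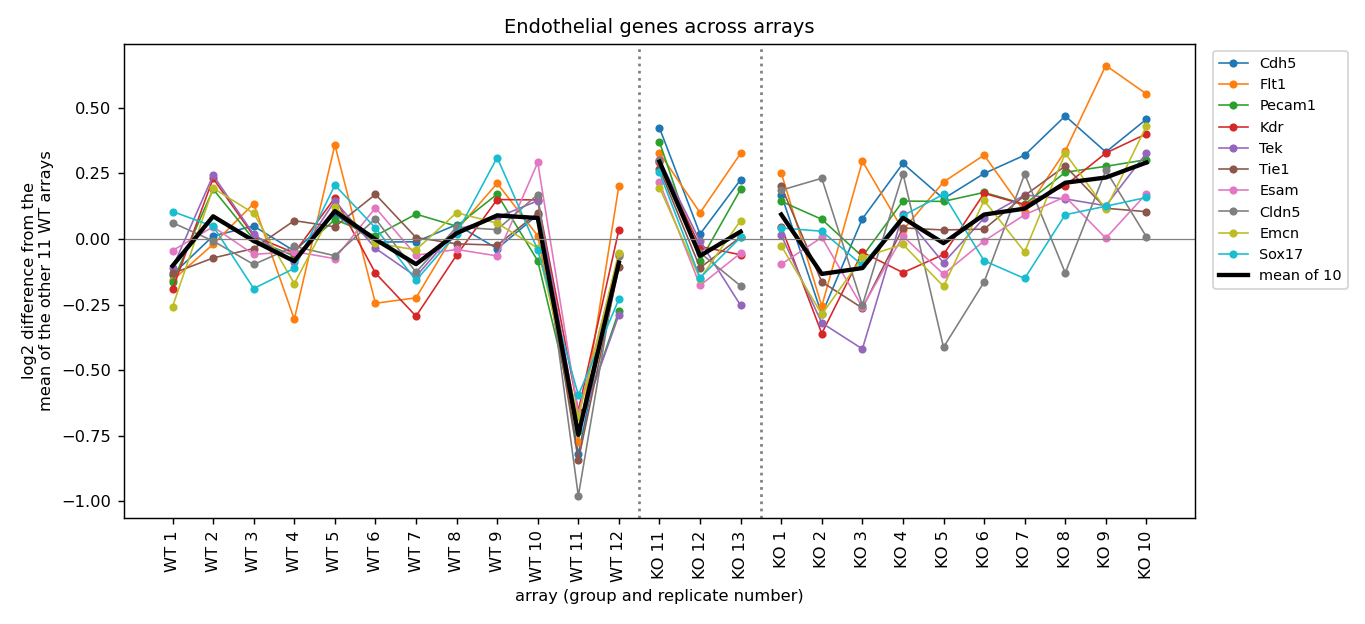
The 10 endothelial genes (coloured lines) and their mean (black) on each of the 25 arrays, as the log2 difference from the mean of the 11 WT arrays other than replicate 11. WT replicate 11 lies below all other WT arrays in every gene, and KO replicate 11 lies at or above KO replicates 12 and 13.

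None of the 10 genes differed between KO and WT past the threshold. At an adjusted p below 0.05 over all 28940 clusters 0 of 10 were called by limma, beside 0.0242% of all clusters (0.0138% higher in KO), and at an unadjusted p below 0.05 also 0 of 10, beside 10.3%. The fitted differences were above 0 for 10 of 10 genes, beside 51.8% of all clusters, with a median of 0.11. The arrays numbered 11 were picked for low values in WT and high values in KO, so leaving them out could only lower these differences. Leaving out KO replicate 12 or 13 instead gave a median of 0.18 or 0.20. Without WT replicate 11 the differences were above 0 for 9 of 10 genes (51.9% of clusters) with a median of 0.05, without KO replicate 11 for 6 of 10 (51.1%) with a median of 0.01, and without both for 3 of 10 (51.0%) with a median of -0.048.

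Of the junction genes, Cdh5 encodes VE-cadherin, the adhesion molecule of endothelial adherens junctions. Its WT values ran from 7.97 in replicate 11, the lowest, through a median of 8.78 to 8.89, and KO replicates 11, 12 and 13 stood at 9.22, 8.81 and 9.02. KO replicates 11 and 13 were above every WT array and replicate 12 lay among them. The difference was 0.29 ± 0.14 (SE, 95% interval -0.00 to 0.58, unadjusted p = 0.0510, limma adjusted p = 0.485), and the exact permutation test over the 455 splits of these 15 arrays into 3 and 12 gave p = 0.136 (two-sided, smallest possible p 0.0022). Without WT replicate 11 the difference was 0.22 (limma, unadjusted p = 0.0420, lowest adjusted p of the 10 genes 0.402). Without KO replicate 11 it was 0.19 (limma, unadjusted p = 0.266), and without both arrays numbered 11 it was 0.12.

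Pecam1 encodes an adhesion molecule of the lateral endothelial border. It ran from 6.19 through a median of 6.92 to 7.11 in WT and stood at 7.29, 6.83 and 7.11 in KO replicates 11, 12 and 13. Replicate 11 alone was above all WT arrays. The difference of 0.22 ± 0.12 (SE, limma adjusted p = 0.567, exact permutation p = 0.198) became 0.05 without both arrays numbered 11.

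Esam, an immunoglobulin-type adhesion molecule of tight junctions, stood at 6.22 to 7.18 in WT with a median of 6.83, and at 7.10, 6.71 and 6.83 in the 3 KO arrays. The KO values lay within the WT range. Here the difference was 0.05 ± 0.12 (SE, adjusted p = 0.925), the smallest of the 10, and -0.12 without both arrays.

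Cldn5 encodes the main claudin of brain endothelial tight junctions. WT values were 6.77 to 7.92 with a median of 7.74, against 8.05, 7.70 and 7.58 in KO replicates 11, 12 and 13. Only replicate 11 exceeded the WT range, and replicates 12 and 13 were both below the WT median. A difference of 0.10 ± 0.17 (SE, adjusted p = 0.876) was fitted, and -0.12 without both arrays.

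Among the receptors, Flt1, which binds Vegfa tightly and limits its access to Kdr, had the largest SD of the 10 in WT, 0.30 (n = 12), with values from 6.13 through 6.90 to 7.26. KO replicates 11, 12 and 13 stood at 7.23, 7.0 and 7.23, all above the WT median and none above the highest WT array. The difference was the largest of the 10, 0.32 ± 0.17 (SE, 95% interval -0.03 to 0.66, limma adjusted p = 0.524, exact permutation p = 0.105). It was also the one least moved by leaving out both arrays numbered 11, at 0.21.

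Kdr, the main signalling receptor for Vegfa, ran from 6.55 through 7.18 to 7.43 in WT, and its KO values were 7.49, 7.17 and 7.14. Replicates 12 and 13 lay just below the WT median. The difference was 0.12 ± 0.14 (SE, adjusted p = 0.822) and became -0.045 without both arrays, so that the Vegf receptors, Flt1 and Kdr, stood on opposite sides of 0 there; the difference between them was not tested.

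Tek, the receptor for angiopoietins, had WT values of 6.22 to 7.18 (median 6.93) and KO values of 7.24, 6.93 and 6.69. Replicate 11 was above all WT arrays, and replicate 13 was below all of them but replicates 11 and 12. A difference of 0.07 ± 0.15 (SE, adjusted p = 0.909) was found, or -0.13 without both arrays, the lowest of the 10.

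Tie1, a relative of Tek with no ligand of its own established, lay at 6.37 to 7.38 (median 7.19) in WT and at 7.48, 7.10 and 7.22 in KO replicates 11, 12 and 13, of which only replicate 11 was above all WT arrays. Its difference was 0.13 ± 0.13 (SE, adjusted p = 0.804), and -0.051 without both arrays.

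Emcn encodes endomucin, a sialomucin of venous and capillary endothelium, and Sox17 a transcription factor of arterial endothelium. Emcn ran from 7.99 through 8.64 to 8.86 in WT and stood at 8.87, 8.52 and 8.74 in the KO arrays, a difference of 0.09 ± 0.14 (SE, adjusted p = 0.863). Sox17 ran from 4.17 through 4.76 to 5.08 and stood at 5.02, 4.62 and 4.77, a difference of 0.09 ± 0.12 (SE, adjusted p = 0.855). In both genes KO replicates 12 and 13 were within the WT range, and without both arrays numbered 11 the differences were -0.041 and -0.071.

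**Figure D2:**
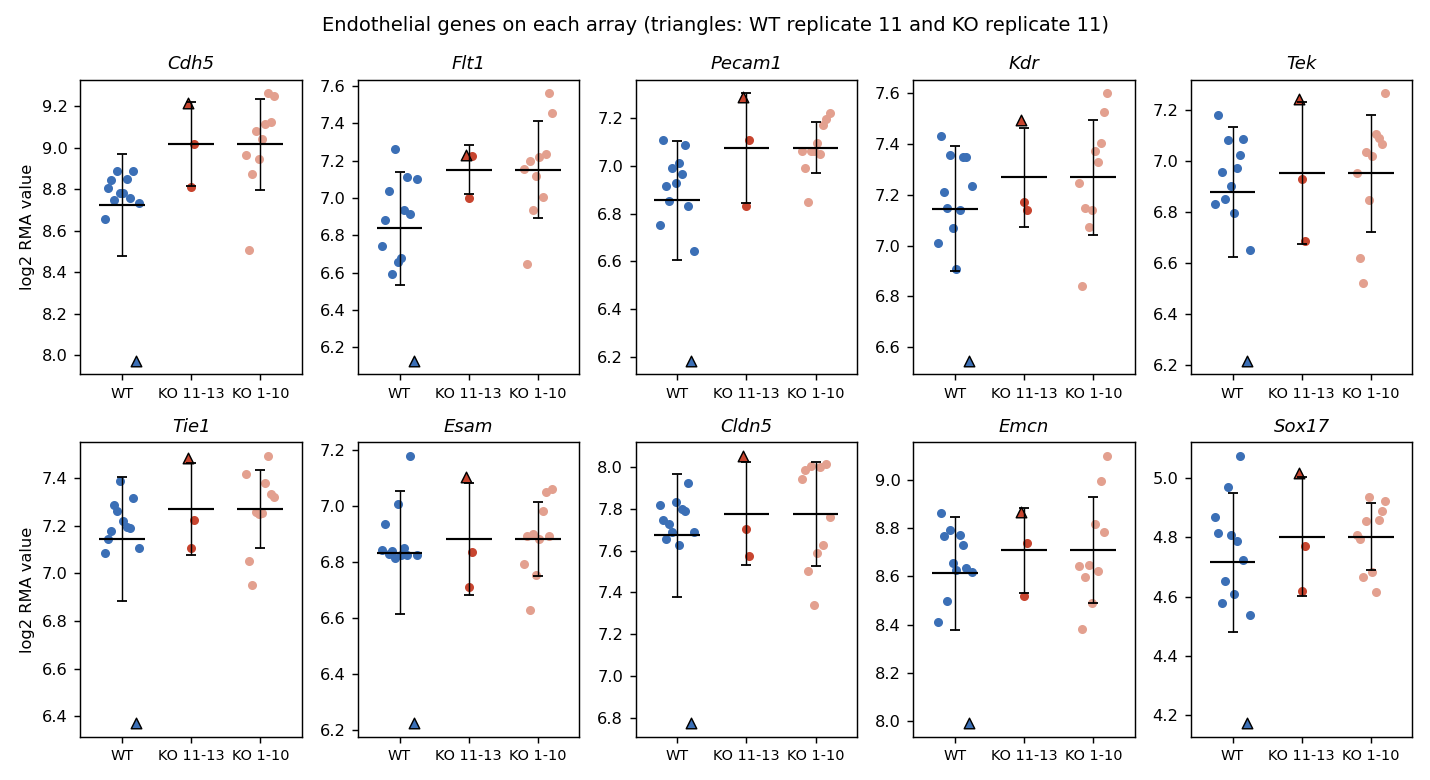
Log2 RMA values of the 10 endothelial genes on each array, with group means (horizontal lines) and SD (error bars); the triangles are WT replicate 11 and KO replicate 11. The values of the 3 KO arrays overlap those of the 12 WT arrays in every gene, and the means of KO 1-10 and KO 11-13 are equal, as on nearly every probe set.

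Over the 10 genes, 7 had at least 1 of the 3 KO arrays above all WT arrays, beside 22.9% of all clusters, and 0 had all 3, beside 0.536%. The 95% intervals reached from -0.24 to 0.66, so that differences of up to 0.66 (Flt1) were not excluded at this number of arrays. With genotype as the only term, which counts KO replicates 1 to 10 as separate evidence, 3 genes were called, Cdh5 (adjusted p = 0.0218), Flt1 (0.0326) and Pecam1 (0.0470), each higher in KO, beside 16.7% of all clusters called in either direction and 9.68% called higher. The size of each difference was the same in that fit and the standard error was smaller, by a median of 1.65 times.

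**Figure D3:**
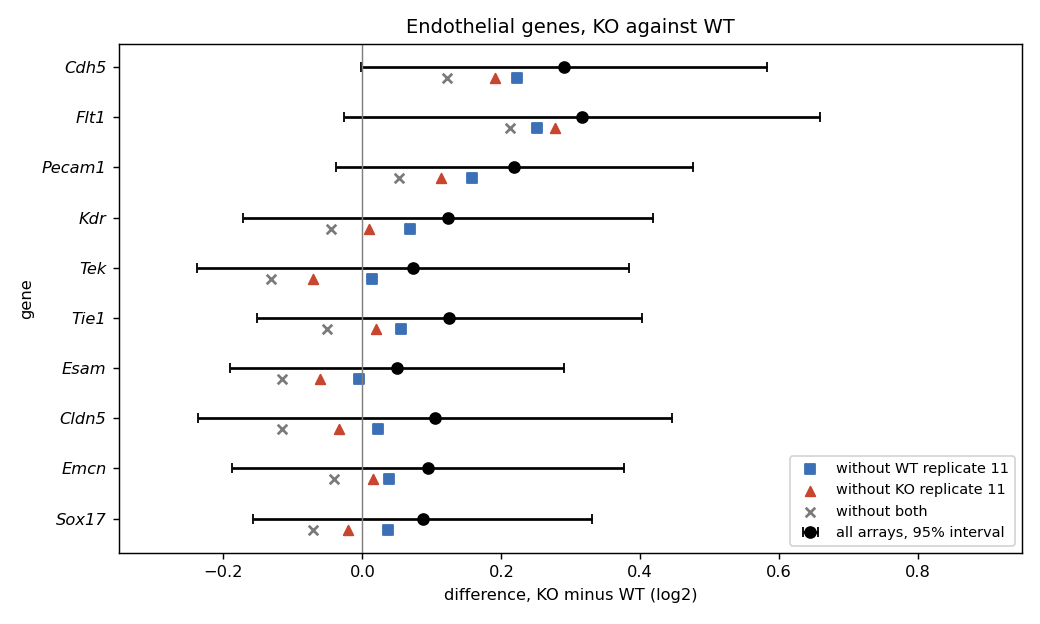
Difference between KO and WT (log2) of the 10 endothelial genes with the term for KO replicates 1 to 10. Black circles with 95% intervals are all arrays, and the other symbols leave out WT replicate 11 (squares), KO replicate 11 (triangles) or both (crosses). Every interval reaches 0, and without both arrays only Cdh5, Flt1 and Pecam1 stay above 0.

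The DNA before these genes was read to show what they share beside the cell type. Endothelial genes are known as targets of ETS transcription factors, whose sites have the core GGAA. Promoters of 6 of the 10 genes (Cldn5, Emcn, Flt1, Kdr, Tek and Tie1) were in the RefSeq table, and the 250 bases before each start were searched on both strands. The 4 shown, written 5′ to 3′ on the strand of the gene in build GRCm38.p6, span the range from the most to the fewest matches, with each GGAA, or TTCC where the match is on the other strand, in capitals. They are Tie1 (chr4:118489850-118490099, minus strand), Emcn (chr3:137340828-137341077, plus strand), Tek (chr4:94739039-94739288, plus strand) and Cldn5 (chr16:18776597-18776846, plus strand).
Tie1: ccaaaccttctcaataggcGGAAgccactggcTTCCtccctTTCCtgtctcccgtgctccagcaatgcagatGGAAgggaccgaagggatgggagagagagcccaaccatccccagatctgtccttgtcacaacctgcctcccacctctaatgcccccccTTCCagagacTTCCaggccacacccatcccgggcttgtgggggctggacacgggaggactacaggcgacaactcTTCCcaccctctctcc
Emcn: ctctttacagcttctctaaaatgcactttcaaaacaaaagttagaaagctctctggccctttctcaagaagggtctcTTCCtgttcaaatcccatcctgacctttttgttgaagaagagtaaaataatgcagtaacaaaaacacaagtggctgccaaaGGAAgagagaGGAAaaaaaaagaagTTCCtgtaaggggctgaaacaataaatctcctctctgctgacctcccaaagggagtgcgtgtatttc
Tek: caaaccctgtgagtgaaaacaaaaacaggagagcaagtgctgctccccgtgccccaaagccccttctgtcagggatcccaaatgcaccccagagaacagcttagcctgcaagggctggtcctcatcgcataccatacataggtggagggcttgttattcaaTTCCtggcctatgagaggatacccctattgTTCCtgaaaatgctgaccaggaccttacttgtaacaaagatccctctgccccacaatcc
Cldn5: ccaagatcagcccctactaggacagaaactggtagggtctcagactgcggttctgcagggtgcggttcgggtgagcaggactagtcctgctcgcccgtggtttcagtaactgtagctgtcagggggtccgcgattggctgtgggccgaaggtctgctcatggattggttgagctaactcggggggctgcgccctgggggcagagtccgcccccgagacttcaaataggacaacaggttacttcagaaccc

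GGAA occurred 7 times before Tie1, 4 times each before Emcn, Flt1 and Kdr, 2 times before Tek and 0 times before Cldn5. At least 1 match was thus present in 5 of 6, where 93.4% of all 32851 promoters of this length had one. The longer CAGGAA, which contains GGAA, was present in 3 of 6 (Emcn, Tek and Tie1) beside 25.7% of all promoters, and ACAGGAA, which contains both, in 2 of 6 (Emcn and Tie1) beside 7.20%. CCGGAA was found in 1 (12% of all), the SOX core ACAAT in 2 (27.7%), GGGCGG in 3 (32.7%) and TATAAA in 1, Flt1 (12.4%). With 6 promoters these counts are a description.

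Next, the genes were compared with each other within groups, since genes of 1 cell type vary together where the amount of that cell type varies between samples. The spread of the 10 genes was large in WT, with a median SD of 0.248 against 0.143 over all clusters, but without WT replicate 11 it was 0.136 against 0.137. In KO replicates 1 to 10 it was 0.219 against 0.149. The mean of the 10 genes had an SD of 0.229 in WT, of 0.0829 without replicate 11, and of 0.141 in KO replicates 1 to 10, where it ran from 7.07 to 7.50.

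Pairwise correlation in WT depended on replicate 11. Over the 45 pairs the median Pearson's r was 0.806 in the 12 WT arrays (lowest 0.569, highest 0.950) and the median Spearman's rho 0.455. Without replicate 11 the median r was 0.320 (lowest -0.290, highest 0.758) and 36 of 45 pairs remained above 0, and without the 2 arrays farthest from the median of the 10 genes (replicates 11 and 5) it was 0.307. The share of the variance on the first principal component was 81.9% with all 12 arrays and 40.1% without replicate 11. By Pearson's r 31 of the 45 WT pairs had an adjusted permutation p below 0.05 and by Spearman's rho, which weighs an outlying array less, 6 of 45 (adjusted over the 90 pairs of both groups). Cdh5 with Cldn5, not among these 31, had 1 of the larger falls. Its r was 0.928 over the 12 WT arrays (permutation p = 0.0363, adjusted 0.0635) and 0.0505 without replicate 11. The rho over the 12 arrays was 0.214 (permutation p = 0.505, adjusted 0.623). Cdh5 with Emcn moved less, from r = 0.911 to 0.702.

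In KO replicates 1 to 10 the correlation rested on no single array, with a median r of 0.493 to 0.600 when each was left out in turn. With all 10 arrays the median r was 0.566 over 45 pairs (lowest -0.205, highest 0.900), the median rho 0.539, and 40 pairs were above 0. With the 2 farthest arrays (replicates 2 and 3) left out the median r was 0.423. In all 17 of the 45 pairs had an adjusted permutation p below 0.05 by r and 8 by rho. Flt1 with Kdr had the highest r over the 10 arrays, 0.900 (permutation p = 0.00052, adjusted 0.0111), with rho = 0.903 (permutation p = 0.00086, adjusted 0.0258) and r = 0.862 without the 2 farthest arrays. By rho Cdh5 with Tek was higher (0.927), and without the 2 farthest arrays Cdh5 with Esam (r = 0.964) was the highest. Flt1 with Kdr had r = 0.854 in WT and 0.666 without WT replicate 11. Whether the median correlation differed between KO and WT was not tested.

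**Figure D4:**
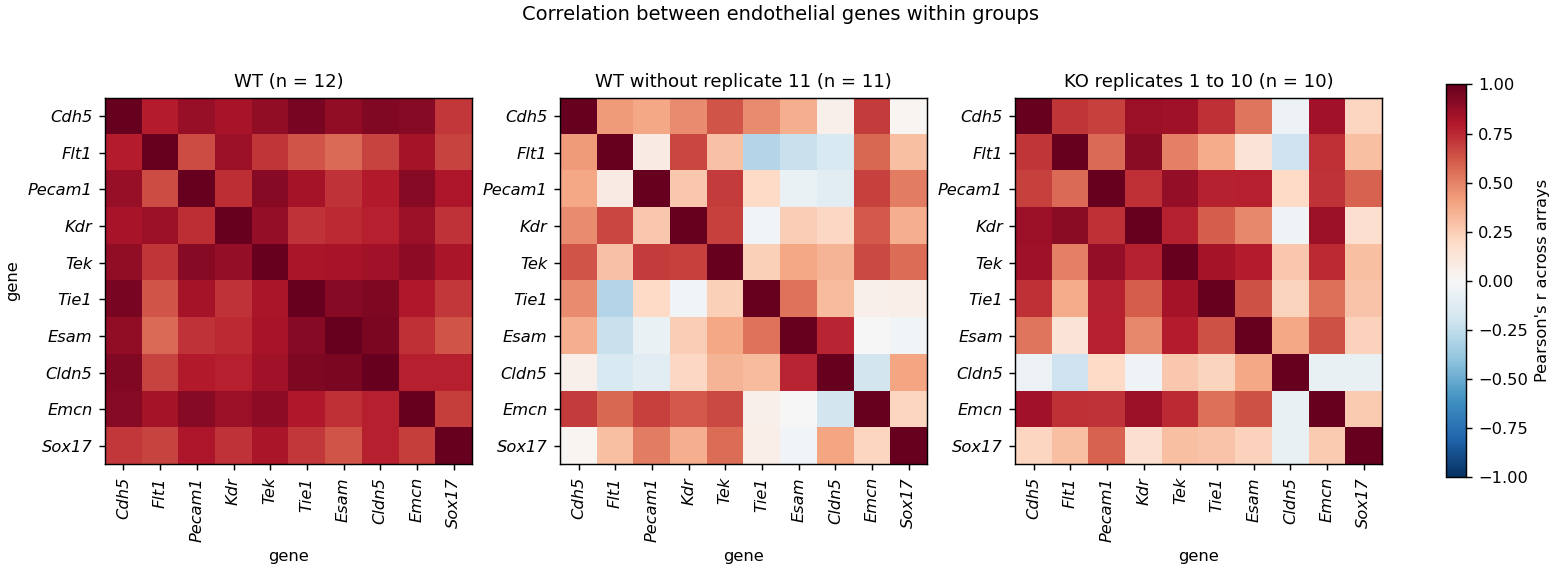
Pearson's r across arrays between each pair of the 10 endothelial genes, in the 12 WT arrays, in the 11 WT arrays other than replicate 11 and in KO replicates 1 to 10 (red, positive; blue, negative). The first panel is red throughout (median 0.806), the second is mixed (0.320), and in the last Cldn5 and Sox17 stand apart from the other genes (median of all pairs 0.566).

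The genes were not equally coherent. Tek had the highest correlation with the mean of the other 9 genes both without WT replicate 11 (r = 0.857, n = 11) and in KO replicates 1 to 10 (r = 0.909, n = 10). Kdr (0.717 and 0.855), Emcn (0.673 and 0.818) and Cdh5 (0.646 and 0.843) followed in WT without replicate 11, and Pecam1 had 0.499 and 0.889. Cldn5 had r = 0.914 in all 12 WT arrays, but 0.245 without replicate 11 and 0.0520 in KO replicates 1 to 10. Sox17 had 0.475 and 0.301, Tie1 0.170 and 0.748, Esam 0.225 and 0.674, and Flt1 0.355 and 0.614. Correlations above 0.5 with the mean of the 10 genes were found for 9.63% of all clusters in WT without replicate 11 and for 9.96% in KO replicates 1 to 10. These values are descriptions, since the same arrays and the same normalization lie behind every gene.

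Several pairs were closely correlated in WT without replicate 11, among them Cdh5 with Emcn (r = 0.702) and Pecam1 with Tek (0.698). By rho over the 12 WT arrays Tek with Emcn was the highest (0.818). For the junction genes Esam and Cldn5 r was 0.941 (rho = 0.778, adjusted permutation p = 0.0111 and 0.0369). Without replicate 11 it was 0.758, the highest of the 45 pairs. In KO replicates 1 to 10 the pair had r = 0.384, and Cldn5 had a negative r with Flt1 (-0.205), Emcn (-0.08), Sox17 (-0.07), Cdh5 (-0.06) and Kdr (-0.04).

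The genes most like the 10, ranked among 18804 genes by the smaller of r with their mean in WT (n = 12) and in KO replicates 1 to 10 (n = 10), were Mmrn2, Fli1, Pdgfrb, Cd93, Acvrl1, Mef2c, Adam15, Arhgap28, Adcy4, Stat6, Calcrl and Prkch. Mmrn2 (multimerin 2, of the endothelial extracellular matrix), Fli1 (an ETS factor of blood and endothelial cells) and Cd93 (an endothelial surface receptor) belong to a list of 30 other endothelial genes, of which 9 were among the first 100. Pdgfrb marks pericytes and mesenchyme. Without WT replicate 11 only Fli1 was still among the first 12, at rank 1 with r = 0.880 in WT and 0.939 in KO replicates 1 to 10. Adcy4 dropped from rank 9 to rank 6510 (r = -0.02 in WT without replicate 11), and 6 of the other endothelial genes were among the first 100.

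Of the other endothelial genes, 0 of 30 were called, and at an unadjusted p below 0.05, past which 6.20% of all clusters were higher and 4.15% lower, 3 were higher and 1 lower. Their median difference was 0.11, as in the 10 genes, and 0.0055 without both arrays numbered 11. Leaving these out also turned the count at an unadjusted p below 0.05 to 0 higher and 3 lower, namely S1pr1 (-0.40), Robo4 (-0.43) and Erg (-0.41), of which Robo4 and Erg are named after their values were seen. Adgrf5, an adhesion receptor of endothelium, ran from 5.56 through 6.27 to 6.43 in WT. It stood at 6.86, 6.48 and 6.56 in KO replicates 11, 12 and 13, all above WT, as for 0.536% of all clusters. The difference was 0.40 ± 0.15 (SE, adjusted p = 0.332), and 0.22 without both arrays. Sox7, a relative of Sox17, had a difference of 0.35 ± 0.14 (SE, adjusted p = 0.337) and S1pr1, a receptor for sphingosine-1-phosphate, one of -0.25 ± 0.09 (SE, adjusted p = 0.307). S1pr1 is also used by neural progenitors.

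Arterial genes had differences above 0 with and without the arrays numbered 11. A correlation above 0.5 with the mean of the 10 endothelial genes was found for 5 of them in WT without replicate 11. The same held for 5 in KO replicates 1 to 10. Cxcr4 (r = -0.35 and -0.71) and Jag2 (-0.12 and -0.63) were negative in both sets. Whether the differences arose in arterial endothelium was not tested. None of 12 was called. At an unadjusted p below 0.05, 4 were higher, beside 6.20% of all clusters, and 2 were higher without both arrays. The differences were above 0 for 12 of 12, beside 51.8% of all clusters, with a median of 0.19. With both arrays left out this was also 12 of 12, beside 51.0%, with a median of 0.19. Gja5, the connexin of arterial endothelium, ran from 5.30 through 6.18 to 6.59 in WT and stood at 7.10, 6.78 and 6.87 in the KO arrays. All 3 KO values were above all WT values, as for 0.536% of all clusters. The difference of 0.83 ± 0.25 (SE, unadjusted p = 0.00301, limma adjusted p = 0.238, exact permutation p = 0.0044) was 0.67 without both arrays numbered 11. Dll4, the Notch ligand of tip and arterial cells, differed by 0.33 ± 0.11 (SE, adjusted p = 0.283). KO replicates 11 and 13 were above all WT arrays in Dll4. Bmx, a kinase of arterial endothelium, differed by 0.19 ± 0.08 (SE, adjusted p = 0.444). Its WT mean of 2.80 lay below the array medians of 4.64 to 4.76. With the mean of the 10 genes, Gja5 had r = 0.70 in WT without replicate 11 and 0.58 in KO replicates 1 to 10. In the same sets Dll4 had 0.17 and -0.08, and Bmx 0.03 and 0.61.

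Of 7 venous and lymphatic genes 0 were called, and the median difference was -0.02, or 0.011 without both arrays numbered 11. Nrp2, a co-receptor for Vegfc, differed by 0.43 ± 0.18 (SE, adjusted p = 0.413), or 0.33 without both. Nr2f2, a venous transcription factor also used in the caudal hypothalamus, differed by -0.28 ± 0.14 (SE, adjusted p = 0.50), or -0.40 without both. For Ephb4, a receptor of venous endothelium, the difference was 0.09 ± 0.08 (SE, adjusted p = 0.718), or 0.079 without both.

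Of 9 tip cell genes measured (10 listed) 0 were called and the median difference was 0.22, or 0.13 without both arrays numbered 11. At an unadjusted p below 0.05, 2 were higher with all arrays and 0 without both. The basement membrane genes Nid1 (0.40 ± 0.16, SE), Col4a2 (0.36 ± 0.15) and Col4a1 (0.31 ± 0.15) had the smallest p among them, with adjusted p from 0.367 to 0.486. KO replicate 11 alone was above all WT arrays in each, and without both arrays the differences were 0.23, 0.19 and 0.10. Among 15 genes of the blood-brain barrier (16 listed) 0 were called, with a median of 0.06 (0.099 without both arrays), and the transporter Slco1c1 (0.28 ± 0.11, SE), the tight junction gene Ocln (0.21 ± 0.09) and the pericyte factor Foxf2 (0.36 ± 0.19) had the smallest p. Foxf2 was at 0.22 without both arrays.

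The 16 genes for vascular ligands and signals are in part made by the neural tissue itself. None was called, and their median difference was 0.12, or 0.074 without both arrays. Cxcl12, a chemokine of vessels and mesenchyme, ran from 7.13 through 7.87 to 8.12 in WT. It stood at 8.41, 8.21 and 8.19 in KO replicates 11, 12 and 13, above all WT arrays, as for 0.536% of all clusters. Its difference was 0.46 ± 0.17 (SE, adjusted p = 0.324). Wnt7b, a neural ligand needed for brain vessels, had a difference of -0.97 ± 0.53 (SE, adjusted p = 0.550), and -1.38 without both arrays. Its WT range was wide, from 4.86 to 8.14. Sema3e, which repels endothelial cells through plexin D1, differed by 0.38 ± 0.21 (SE, adjusted p = 0.559).

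Markers of other cells that a dissected piece could hold moved with WT replicate 11 as well. Against the mean of the other 11 WT arrays, the mean of 14 macrophage genes was at -0.78 in WT replicate 11, that of 12 mesenchyme genes at -0.66, of the 30 other endothelial genes at -0.56, of 12 arterial genes at -0.43, of 14 pericyte and smooth muscle genes at -0.40 and of 9 tip cell genes at -0.39, each below the other 11 WT arrays. In contrast the mean of 11 erythroid genes (13 listed), which mark circulating blood cells, was at 0.86, above the other WT arrays, which ran from -0.43 to 0.84. The 14 neuroepithelium genes were at -0.06, within the range of the other WT arrays. In KO replicate 11 the means were 0.34 for mesenchyme, 0.29 for pericyte and smooth muscle, 0.26 for macrophage, 0.66 for erythroid and -0.22 for neuroepithelium genes. The part of these cells in the endothelial values was not tested.

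**Figure D5:**
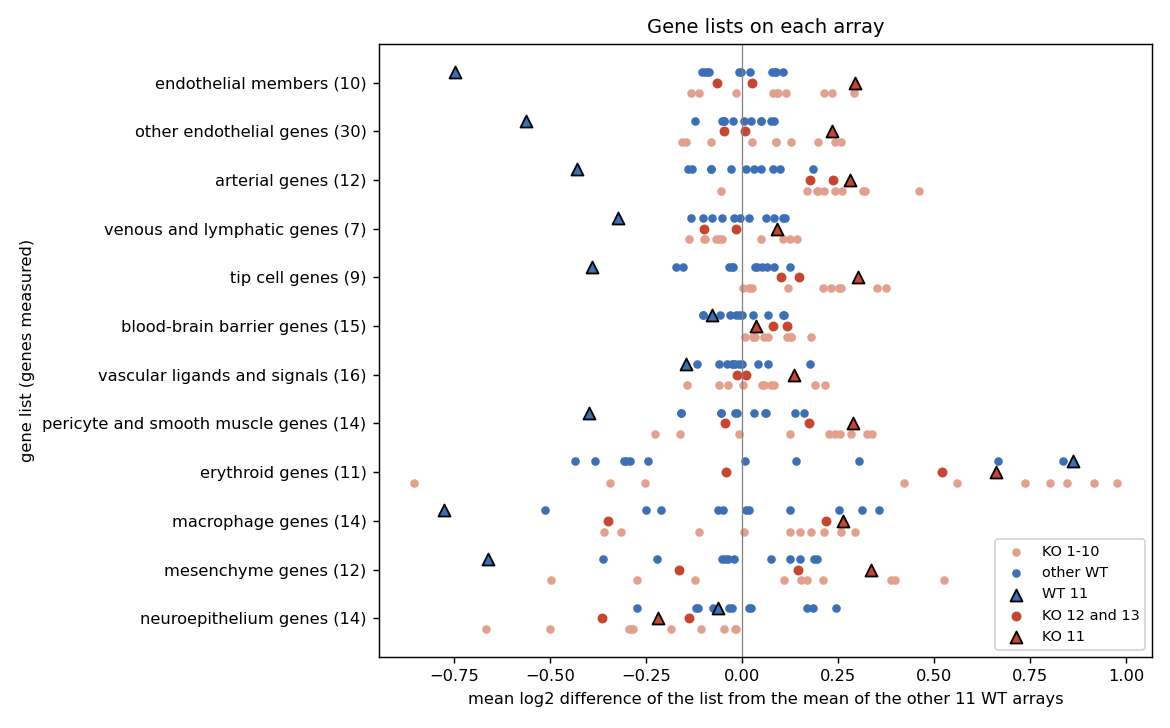
Mean log2 difference of each gene list from the mean of the 11 WT arrays other than replicate 11, one point for each of the 25 arrays. WT replicate 11 (blue triangle) lies at the lower end in the endothelial, arterial, pericyte, macrophage and mesenchyme lists and at the upper end in the erythroid list (0.86), and is inside the range for neuroepithelium genes (-0.06).

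Between KO and WT 0 genes of these other lists were called. Pdgfrb (0.38 ± 0.18, SE), Vtn (0.47 ± 0.22) and Abcc9 (0.33 ± 0.16) of the pericyte list had the smallest p of its 14 genes, with adjusted p from 0.454 to 0.473. Without both arrays numbered 11 these differences were 0.19, 0.33 and 0.047, the list median was 0.061 in place of 0.19, and 0 of its genes were at an unadjusted p below 0.05 in place of 3 higher and 1 lower. The median was 0.10 for macrophage and 0.15 for mesenchyme genes, and turned to -0.047 and -0.043 without both arrays. For erythroid genes it was 0.36 (0.23 without both) and for neuroepithelium genes -0.12 in both cases. Erythroid genes had large standard errors, as in Hbb-bh1 (0.27 ± 0.24), Slc4a1 (0.46 ± 0.42) and Klf1 (0.36 ± 0.35). Of the macrophage list C1qa (0.31 ± 0.13), Cd68 (-0.20 ± 0.13) and Spi1 (0.22 ± 0.18) are named, and of the mesenchyme list Foxc2 (0.45 ± 0.23), Lum (0.26 ± 0.16) and Col3a1 (0.20 ± 0.17). Without both arrays Spi1 was at 0.099, Foxc2 at 0.28, Lum at 0.079 and Col3a1 at 0.023. Among neuroepithelium genes Rax, a hypothalamic transcription factor, had a difference of -1.27 ± 0.39 (SE, limma adjusted p = 0.242, exact permutation p = 0.0066), Sox1 of -0.71 ± 0.32 and Sox2 of -0.19 ± 0.10.

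Set against the mean of the 10 genes, the 11 other lists differed in how they varied within groups, which is given as a description over 11 WT arrays (without replicate 11) and 10 KO arrays. The other endothelial genes had r = 0.822 and 0.973 (rho 0.809 and 0.879). Vascular ligands and signals had r = 0.682 and 0.885, arterial genes 0.681 and 0.367, tip cell genes 0.458 and 0.783 and genes of the blood-brain barrier 0.698 and 0.189. Pericyte and smooth muscle genes had r = 0.200 and 0.538, mesenchyme genes 0.216 and 0.782, macrophage genes -0.20 and 0.412, erythroid genes -0.26 and 0.395 and venous and lymphatic genes -0.31 and 0.285. Neuroepithelium genes had a negative r in both sets, -0.63 and -0.65. Without the 2 arrays farthest from the median of the 10 genes in each set several of these values changed sign. Macrophage genes were then at -0.15 and venous and lymphatic genes at -0.14 in KO, and pericyte and smooth muscle genes at -0.085 and mesenchyme genes at -0.23 in WT. In KO pericyte and smooth muscle genes had r = 0.184 and mesenchyme genes 0.444, and in WT tip cell genes had 0.185. The other endothelial genes had 0.786 and 0.940 and neuroepithelium genes -0.52 and -0.81. The barrier genes had 0.483 in KO.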

How the data were processed

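The dissected mamillary neuroepithelium of embryos was measured in 13 KO and 12 WT samples on Affymetrix Mouse Gene 1.1 ST arrays. The deposited log2 values were made by the authors with RMA, and Affymetrix Expression Console 1.0, affy and R 2.7.0 are named in the submitters' processing notes. Some deposited columns held a misprinted score far above any log2 value in single cells. The 14 such cells, all above 14, were set missing (12 in tested clusters, 0 in the 10 genes). Of 35556 probe sets, 6616 lacking annotation and numbered in a separate low range were dropped, and 28940 were tested. Symbols come from the platform annotation (21218 clusters with a single symbol, 21185 matched by Entrez number to RefSeq genes). A batch adjustment is not given in the sources used here; how the means of the KO sets became equal, and what that removed, is unknown.

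Clusters were fitted in limma 3.58.1 (R 4.3.3) on 25 arrays with genotype and a term for KO replicates 1 to 10, with moderated variances and Benjamini-Hochberg adjustment, two-sided. Single genes were also compared by an exact permutation test, and pairs of the 10 genes by 100000 permutations (smallest p 1e-05) of r and rho. No test was run over a list. The fits and permutations were tested on simulated data. Genes were named by rule: the 10 members, the 3 smallest p of each other list and every called gene of it, the 12 most alike and Lhx5. Members and lists were chosen with earlier results of these data known. Alternatives were genotype alone, the 15 arrays of KO replicates 11 to 13 and WT alone, a replicate block, other scalings, filters and weights, restored misprinted cells, and each array left out. Array precision is limited by the number of arrays, with pairwise correlations of 0.986 to 0.997 between arrays. Nothing states that the replicates are single embryos or came from separate litters, so p-values measure the spread between these samples. Replicate numbers were checked as a pairing: same-numbered arrays correlated at -0.33 to 0.43, above 0.1 for 4 of 12, and were not taken as pairs. Promoters came from RefSeq (GRCm38.p6, 32851 promoters). Plots were made in Python 3.11.15 (matplotlib 3.10.9).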

Additional observations from a re-analysis of the deposited data

Results flagged for a closer look

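Cdh5 in KO replicate 2 stood apart from the other arrays of KO replicates 1 to 10. It was at 8.51, and the next lowest array, replicate 3, at 8.87, so that the gap was 0.481 of the whole range of the 10 arrays. The test, Dixon's, was applied to 11 series of values (the 10 genes and their mean), and chance alone flags a small share of such groups. KO replicate 2 was also the lowest of these 10 arrays in Flt1 (6.64), Kdr (6.84) and Emcn (8.38), without passing the same limit. With replicates 2 and 3 left out, the median r between the 10 genes in KO replicates 1 to 10 was 0.423 against 0.566.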

How the results depend on the processing

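The count of 0 called genes became 3 with genotype as the only term and was 0 in each of the 15 fits that left out 1 array. The median difference of 0.11 ran from 0.013 to 0.195 when each array was left out in turn, and was 0.53 with the replicate block (0.38 to 0.66 over the 10 genes, 7 at an unadjusted p below 0.05, 0 adjusted, lowest adjusted p 0.373); this block sets KO replicate 11, high in these genes, against WT replicate 11, low in them, as 1 pair. Coherence in WT, 0.806 by r, was 0.455 by rho, 0.307 without the 2 farthest arrays and 0.320 to 0.837 with 1 array left out, the lowest without replicate 11. In KO replicates 1 to 10 it ran from 0.493 to 0.600. Single genes reversed only where an array numbered 11 was left out: without KO replicate 11 Tek (-0.071), Esam (-0.060), Cldn5 (-0.034) and Sox17 (-0.021), whose highest values with 1 array left out were 0.21, 0.14, 0.20 and 0.18, without WT replicate 11 Esam (-0.0054), and without both, a setting chosen after seeing the data, Kdr (-0.045), Tek (-0.13), Tie1 (-0.051), Esam (-0.12), Cldn5 (-0.12), Emcn (-0.041) and Sox17 (-0.071). Under repeated quantile normalization, centring, array weights, limma-trend, dim clusters left out, restored cells and the 15 arrays alone, all 10 genes stayed above 0 and uncalled, with 0 to 3 at an unadjusted p below 0.05 (3 after repeated quantile normalization). No cause was tested. The limits are the 3 KO arrays behind each difference and the unknown processing that made the means of the KO sets equal.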
